A study of Mus musculus with 24 samples.

Results

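The Dlk1-Dio3 region of mouse chromosome 12 carries a large microRNA cluster. Its members were taken as the genes that GENCODE M21 annotates as microRNA between the first base of Meg3 and the last base of Mirg, on both strands (chr12:109541001-109749460, GRCm38). They numbered 66 of the 55335 rows of the count table, and 66 of its 2202 rows with that annotation. The plus strand holds 59 of them and the minus strand 7. The markers named for this part, Mir341 and Mir409, had 1439 and 438 counts and were found in all 12 embryonic stem cell libraries. Since members were taken by position and annotation alone, these counts do not test the label.

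Small RNA was sequenced from mouse embryonic stem cells (mESC) and from neural progenitor cells (NPC) made from them, in 6 Htt genotypes with 2 biological samples per genotype and cell type, 24 libraries in all. Htt encodes huntingtin, whose CAG repeat is expanded in Huntington's disease. The genotypes were an Htt knockout (KO), wild type (WT) and heterozygous Hdh CAG knock-in lines called Q20, Q50, Q92 and Q111, with 20, 50, 92 and 111 repeats in the sample titles and 89 in place of 92 in the growth protocol. The mESC of every genotype were kept with leukemia inhibitory factor over irradiated CF-1 fibroblast feeders on gelatin, and the NPC were obtained in N2B27 medium and grown on laminin with FGF and EGF. Each repeat length was a single line, so that line and repeat length cannot be told apart. The labels name no strain and do not say whether WT and KO cells share a parental line with the knock-ins. The libraries held 642384 to 2360434 counts in mESC and 342022 to 682113 in NPC. The 66 genes received 4578 of the 25027120 counts, or 0.0183%.

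The Dlk1-Dio3 domain is imprinted. The paternal copy is known to express the protein-coding genes Dlk1, Rtl1 and Dio3, and the maternal copy to express the noncoding transcripts Meg3, Rian and Mirg, from which snoRNAs and microRNAs are processed. In mouse stem cells, activity of the maternal noncoding transcripts is known as a marker of developmental quality, because cells that silence them support embryonic development poorly. A microRNA gene makes a hairpin from which Drosha and then Dicer release a mature strand, and bases 2 to 8 of that strand, the seed, lead its pairing with target mRNAs.

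The mature sequences of the 7 genes that carried most of the counts are shown first, from RefSeq (GRCm38.p6), with the seed in capitals. Of the 66 genes, 57 matched a RefSeq hairpin, all 57 at the same coordinates, and 60 matched at least 1 mature sequence, 112 in all.
mmu-miR-341-5p: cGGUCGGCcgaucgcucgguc
mmu-miR-341-3p: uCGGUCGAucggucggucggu
mmu-miR-127-5p: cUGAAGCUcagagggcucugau
mmu-miR-127-3p: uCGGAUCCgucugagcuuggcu
mmu-miR-409-5p: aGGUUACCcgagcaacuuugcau
mmu-miR-409-3p: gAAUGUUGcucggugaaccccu
mmu-miR-541-5p: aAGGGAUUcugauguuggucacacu
mmu-miR-541-3p: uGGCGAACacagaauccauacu
mmu-miR-665-5p: aGGGGCCUcugccucuauccaggauu
mmu-miR-665-3p: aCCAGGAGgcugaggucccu
mmu-miR-376b-5p: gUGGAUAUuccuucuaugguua
mmu-miR-376b-3p: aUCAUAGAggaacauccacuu
mmu-miR-379-5p: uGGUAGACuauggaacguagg
mmu-miR-379-3p: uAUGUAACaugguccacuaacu

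Each of the 10 arms of Mir341, Mir127, Mir409, Mir541 and Mir665 had a seed that no other gene of the interval shares. Over the 112 mature sequences there were 102 distinct seeds, and 10 of these were found in at least 2 genes. Mir379 and Mir376b belong to such groups, shown here by the partners that share the capital letters with them.
mmu-miR-1193-5p, sharing a seed with mmu-miR-379-5p: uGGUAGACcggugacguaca
mmu-miR-411-3p, sharing a seed with mmu-miR-379-3p: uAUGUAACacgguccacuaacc
mmu-miR-376c-5p, sharing a seed with mmu-miR-376b-5p: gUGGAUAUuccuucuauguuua
Over the 24 libraries Mir379 and Mir411 had 172 and 154 counts, whereas Mir1193 had 22 against 172 for Mir379, and Mir376c had 9 against 194 for Mir376b.

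The most counted gene, Mir341, lies inside Rian (chr12:109611500-109611595, plus strand, intronic to Rian), and its hairpin is shown with both mature arms in capitals.
Mir341 hairpin: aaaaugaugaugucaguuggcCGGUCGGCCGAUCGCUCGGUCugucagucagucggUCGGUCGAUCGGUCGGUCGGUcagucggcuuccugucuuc
The tetramer CGGU, counted on the strand shown with overlaps allowed, occurs 7 times in these 96 bases. No other of the 57 hairpins holds it more than 2 times. The tetramer was picked from the sequence of Mir341 itself. Repeats of the other hairpins' own sequences were not searched for, so a repeat is not shown to be particular to Mir341. Every value below is a count for a whole gene model. The table does not tell the arms apart, nor a mature strand from a hairpin or a longer precursor.

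A count was seen in 47 of the 66 genes, and 19 were at 0 in all 24 libraries. The counts were concentrated in few genes. Mir341 (1439 counts), Mir127 (469), Mir409 (438), Mir541 (389) and Mir665 (232) held 64.8% of them. The next were Mir376b (194), Mir379 (172), Mir411 (154) and Mir431 (104). A further 23 genes had between 11 and 86 counts, 15 genes had 1 to 9, and the 32 genes with at least 10 counts held 98.2%. These shares are of counts and not of levels per length, since the gene models of the 32 span 61 bases (Mir380) to 124 bases (Mir433).

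All 4578 counts fell on the plus strand, the strand of Meg3, Rian and Mirg. The 7 minus-strand genes were at 0, including Mir3071 and Gm24321, which lie opposite Mir136 and Mir409. Mir3071 also lies wholly within an exon of Rtl1 on its own strand. Detection also followed the exon annotation. All 6 plus-strand genes that lie wholly within an exon of Meg3 or Mirg (Mir1906-1, Mir770, Mir134, Mir485, Mir377 and Mir410) were at 0, whereas 43 of the 48 with no same-strand exon over them had a count. Of the 5 that an exon covers in part, Mir3072 was covered to 69.9% and was at 0, and the other 4 were covered to at most 15% and had a count. The strand setting and the rule for reads that match several genes are not given in the sources used here, and whether such reads were dropped was not tested. A 0 for those 6 genes, and for Mir3071, is therefore no measure of their RNA.

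Along the interval the counts lay in 3 stretches. The 17 genes before Rian, which include Mir665 and the genes antisense to Rtl1 (Mir431, Mir433, Mir127, Mir434 and Mir136), held 22.2% of the counts. The 4 genes within Rian held 32.3%, almost all of it in Mir341. The 45 genes beyond Rian, most of which belong to the miR-379/miR-410 cluster, held 45.5%, and Mir379, Mir541 and Mir409 are among them.

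**Figure D1:**
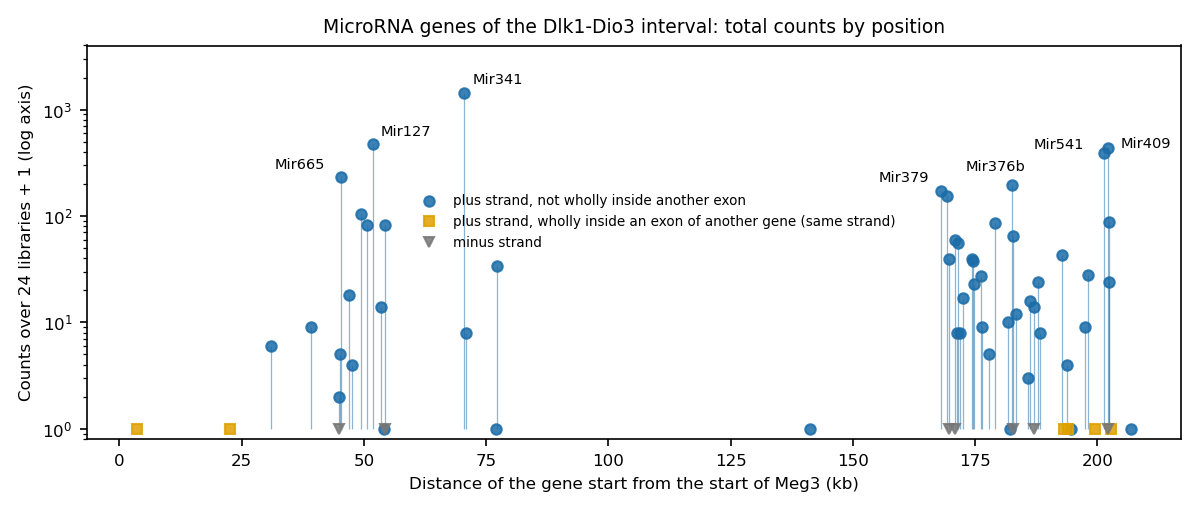
Total counts over 24 libraries plus 1 (log axis) for each of the 66 genes, against the distance of the gene start from the start of Meg3 in kb. Circles are plus-strand genes, squares the 6 plus-strand genes wholly inside an exon of Meg3 or Mirg, and triangles the 7 minus-strand genes; squares and triangles all lie at 0 counts, and Mir341 is the highest point with 1439.

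The first comparison asked how these RNAs differ between the cell types. The genes were found in mESC of every genotype and, apart from the Q20 line, were nearly absent from NPC. Of the 4578 counts, 4316 came from the 12 mESC libraries, 247 from the 2 Q20 NPC libraries and 15 from the other 10 NPC libraries. Summed counts per library lay between 137 and 786 in mESC. In NPC they were 1 and 4 in KO, 1 and 3 in WT, 122 and 125 in Q20, 0 in both libraries of Q50 and of Q92, and 4 and 2 in Q111. The lowest Q20 NPC library thus had 122 counts against at most 4 in any other NPC library.

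The 7 genes that passed the filter on low counts in the fit of all 24 libraries are given by library. Here and below, pairs of counts are replicate 1 and replicate 2. Mir341 received 142 and 53 counts in KO mESC, 123 and 30 in WT, 214 and 231 in Q20, 97 and 38 in Q50, 125 and 76 in Q92, 150 and 72 in Q111. In NPC it received 39 and 47 in Q20, 1 in replicate 2 of KO, 1 in replicate 1 of Q111 and 0 in the other 8 libraries. Mir341 is a rodent microRNA of the Rian stretch, and it was high in all 12 mESC libraries and in the 2 Q20 NPC libraries.

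Mir127, which lies antisense to Rtl1 (chr12:109592846-109592915) and is known to cleave its mRNA, received 42 and 28 counts in KO mESC, 29 and 13 in WT, 73 and 95 in Q20, 31 and 12 in Q50, 29 and 33 in Q92, 32 and 25 in Q111. Its NPC counts were 14 and 12 in Q20, 1 in replicate 2 of Q111 and 0 in the other 9 libraries. The pattern was that of Mir341, with the Q20 libraries highest in both cell types. Mir409 (chr12:109743158-109743236, within Mirg and opposite Gm24321) received 28 and 20 counts in KO mESC, 27 and 10 in WT, 68 and 88 in Q20, 34 and 18 in Q50, 43 and 16 in Q92, 32 and 22 in Q111. In NPC it received 12 and 20 in Q20 and 0 in the other 10 libraries, so that the groups did not overlap.

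Mir541 (chr12:109742409-109742498, within Mirg) received 20 and 37 counts in KO mESC, 19 and 18 in WT, 67 and 55 in Q20, 36 and 25 in Q50, 24 and 18 in Q92, 26 and 21 in Q111. Its NPC counts were 9 and 11 in Q20, 1 in replicate 1 of WT and 2 in replicate 1 of Q111. Of the 7 genes, Mir541 had the most counts in NPC libraries other than Q20, and these were 3 in all. Mir665 (chr12:109586314-109586407, before Rian) received 16 and 19 counts in KO mESC, 8 and 11 in WT, 31 and 50 in Q20, 19 and 7 in Q50, 8 and 16 in Q92, 15 and 23 in Q111. In NPC it received 5 and 4 in Q20 and 0 in the other 10 libraries. The Q20 mESC counts were again above every other mESC library.

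Mir376b (chr12:109723458-109723539) received 7 and 9 counts in KO mESC, 10 and 7 in WT, 35 and 35 in Q20, 5 and 17 in Q50, 18 and 11 in Q92, 15 and 15 in Q111. The NPC libraries gave it 5 and 3 in Q20 and 2 in replicate 2 of KO. Mir379 (chr12:109709060-109709125), whose hairpin opens the miR-379/miR-410 cluster, received 10 and 12 counts in KO mESC, 8 and 8 in WT, 37 and 35 in Q20, 7 and 15 in Q50, 8 and 19 in Q92, 6 and 5 in Q111. In NPC it received 2 and 0 in Q20 and 0 in the other 10 libraries. Mir379 was therefore close to 0 in Q20 NPC as well, although it had 72 counts in Q20 mESC beside 70 for Mir376b.

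**Figure D2:**
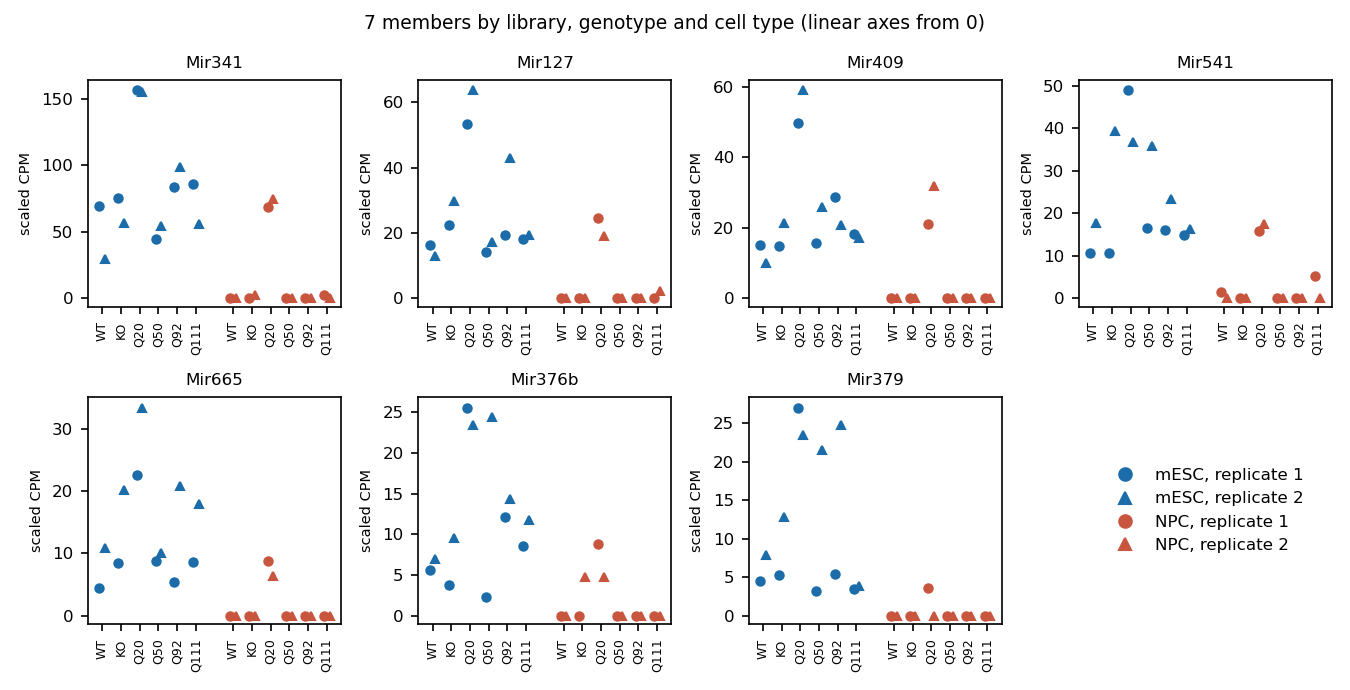
Scaled CPM (counts scaled by the TMM library size; linear axes from 0) of the 7 genes in each library, by genotype, with mESC in blue and NPC in red, circles for replicate 1 and triangles for replicate 2. In Mir341 the 2 Q20 mESC libraries stand at 155 and 156 scaled CPM and the 2 Q20 NPC libraries at 68.8 and 75.0, while the other 10 NPC libraries are at 2.64 or less.

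All 7 genes were called lower in NPC than in mESC by edgeR's quasi-likelihood test at a Benjamini-Hochberg adjusted p of 0.05, where 58.4% of the 904 genes tested were called and 28.0% were called lower. The contrast weighted the 6 genotypes of each cell type equally, and values are log2 differences, NPC minus mESC. Mir341 changed by -6.52 ± 0.41 (SE, edgeR adjusted p 4.509e-11) and Mir376b by -4.69 ± 0.77 (edgeR adjusted p 3.18e-05). The median of the 7 was -5.62, beside -0.02 over all genes tested, and library totals in place of TMM scaling moved the latter by 0.34. The filter kept 4 of the 7 through mESC and Q20 NPC libraries and 3 through mESC libraries alone, so this count and median describe genes that were high in mESC. Fitted changes against groups at 0 depend on the prior count and are no bounds.

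Pooled counts give the size without a model, over the 10 NPC and 10 mESC libraries other than Q20. The sum of the 66 genes stood at 203 scaled CPM in these mESC and 3.05 in these NPC, 66.7-fold lower (95% interval 40.4 to 119). Mir341 was 162-fold lower (44.7 to 1340) and Mir541 29.1-fold lower (9.84 to 142). Mir409, at 0 counts in these NPC, was at least 29.8-fold lower, taking 3 counts over the pooled libraries as the limit that 0 allows, and Mir665 and Mir379 were at least 16.9-fold and 11.7-fold lower. These intervals and limits cover counting error only. In a single NPC library 3 counts equal 4.56 to 8.60 scaled CPM, and a gene below that level was not detectable there.

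**Figure D3:**
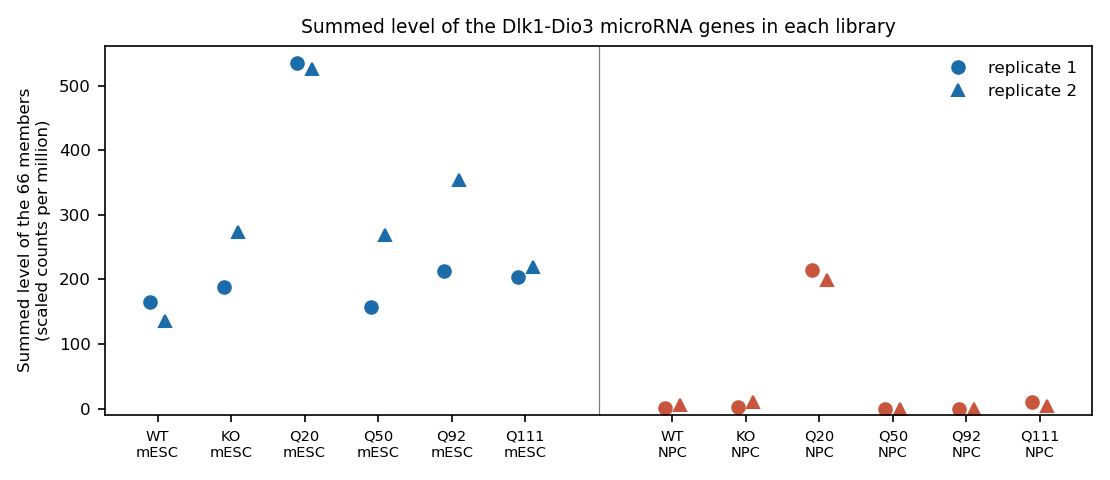
Summed scaled CPM (linear axis) of the 66 genes in each library, by genotype, for mESC (blue, left) and NPC (red, right), with circles for replicate 1 and triangles for replicate 2. The Q20 libraries stand at 536 and 527 in mESC and at 215 and 199 in NPC, the other mESC libraries lie between 136 and 354, and the other NPC libraries are at 10.6 or less.

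The second comparison concerned Q20 NPC, in which these RNAs were present. A count was seen for 26 of the 66 genes in Q20 NPC, for 18 of them in both libraries, and for 9 genes in the other 10 NPC libraries together. The summed level was 207 ± 11.3 scaled CPM in Q20 NPC (SD, n = 2), 7.61 ± 4.18 in Q111, 5.76 ± 5.34 in KO and 3.90 ± 3.36 in WT, and 0 in Q50 and Q92. The ranges of KO, WT and Q111 overlapped, and Q20 lay far above all of them. Pooled, the sum was 67.9-fold higher in Q20 NPC than in the other 10 NPC libraries (95% interval 40.4 to 123). Mir341 was 177-fold higher (47.6 to 1488) and Mir127 107-fold higher (17.6 to 4398), each against 1 or 2 counts. Mir409 was at least 44.0-fold and Mir665 at least 12.4-fold higher, against 0 counts.

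Both Q20 libraries lay above all 10 others in 16 of the 28 genes with any NPC count, beside 2.98% of the 14269 genes with an NPC count. Of the 28, 19 had a count in Q20 NPC alone and so entered through the libraries in which they were high, which makes this count a description and not a result about the 66. The 16 were spread over the stretches, and the pooled ratio was 67.4 before Rian (21.7 to 338), 125 within Rian (41.5 to 618) and 49.1 beyond it (24.9 to 110). The test could be run on few of the genes. Mir341 and Mir409 passed the filter, both through the 2 Q20 libraries alone, and both were called higher, with 5.44% of 441 genes called and 4.08% called higher. Their fitted log2 changes were 6.87 ± 0.55 (SE, edgeR adjusted p 1.16e-08) and 6.85 ± 0.98 (edgeR adjusted p 0.000573). Since a gene could pass only by being high in Q20, this count of 2 describes those genes and is not a result about the 66.

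Among the markers of other cell types, the ES cell microRNAs were higher together with these genes in Q20 NPC. Of 14 ES cell microRNAs (the Mir290 to Mir295 and Mir302 to Mir367 clusters), 11 had a count in Q20 NPC and 1 in the other NPC. Their sum was 355 and 372 scaled CPM in Q20 NPC against 0 to 2.33 in the other 10 libraries. The Mir302 to Mir367 cluster made up 240 to 246 of it and the Mir290 to Mir295 cluster 115 to 126. Lin28a and Lin28b, which block let-7 maturation in stem cells, had 11 and 4 counts in the Q20 NPC libraries together and none elsewhere in NPC. They were singled out after their values were seen, from a list of 18 genes of microRNA processing. The sum of that list was 106 and 81.4 scaled CPM in Q20 NPC, inside the 65.4 to 127 of the other NPC. Of 10 ES cell mRNAs, 8 were at 0 in Q20 NPC, including Nanog and Zfp42. These mRNAs had few counts in this assay. In the 2 Q20 mESC libraries together the 10 had 126 counts, with 13 for Nanog and 17 for Zfp42. A 0 in the smaller NPC libraries therefore does not show their absence, nor a contrast with the ES cell microRNAs. Pou5f1 and Utf1 had 2 counts each, and the sum of the 10 was 5.30 and 1.60 scaled CPM against 0 to 3.15.

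Neural markers were present, at lower summed levels than in the other NPC. All 10 neural progenitor mRNAs had a count in Q20 NPC, where their sum was 148 and 144 scaled CPM against 214 to 393 in the other NPC. Of 12 neural microRNAs, 5 had a count in Q20 NPC, with a sum of 97.1 and 95.7 scaled CPM against 142 to 860. Feeder markers had few counts. Of 6 fibroblast microRNAs only Mir143 had a count in Q20 NPC, which was 1. Of 8 fibroblast mRNAs, Col3a1, Fn1 and Lum had 4, 5 and 1. The sum of these mRNAs was 15.9 and 1.60 scaled CPM in the Q20 NPC libraries, from 9 counts and 1. The other NPC lay at 1.52 to 14.1. Whether stem cells remained in the culture, and the part of these markers in the result, was not tested. In bulk samples like these, fewer cells of a type and less RNA per cell cannot be told apart.

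Within the Q20 line, the genes were present in both cell types, and their make-up could be compared. The sum stood at 531 ± 6.26 scaled CPM in Q20 mESC (SD, n = 2) and the pooled ratio of Q20 NPC to Q20 mESC was 0.390 (95% counting interval 0.339 to 0.446). The ratio was 0.463 for Mir341, 0.492 for Mir409, 0.393 for Mir541, 0.371 for Mir127, 0.274 for Mir376b and 0.266 for Mir665, with counting intervals that overlap. Mir379 had the lowest ratio of the 7, 0.0666 (0.00791 to 0.249), from 2 counts in Q20 NPC and 72 in Q20 mESC. Its interval lay below those of Mir341 (0.363 to 0.585) and Mir409 (0.325 to 0.723) and overlapped those of Mir541 (0.232 to 0.634), Mir127 (0.236 to 0.563), Mir376b (0.114 to 0.570) and Mir665 (0.118 to 0.531). Mir379 was singled out after its values were seen, and a difference between genes in this ratio was not tested.

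The shares of the sum were close in both cell types. Mir341 made up 34.8% of the 66 genes' counts in Q20 NPC (95% exact binomial interval 28.9 to 41.1), 29.3% in Q20 mESC (27.0 to 31.7) and 32.4% in the other mESC (30.7 to 34.2). Mir409 made up 13.0% (9.03 to 17.8), 10.3% (8.79 to 11.9) and 8.94% (7.91 to 10.1). Mir379 made up 0.810% (0.0982 to 2.89) in Q20 NPC and 4.74% (3.73 to 5.93) in Q20 mESC. The intervals of Mir341 and Mir409 in Q20 NPC overlapped those in Q20 mESC, and those of Mir379 did not.

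The same ratio varied among the other RNAs of the interval and among the ES cell markers. The ratio of Q20 NPC to Q20 mESC was 0.322 for Rian (0.303 to 0.341) and 0.330 for the sum of the interval's snoRNA genes (0.319 to 0.342), of which 8 of 23 had a count. It was 0.203 for Mirg (0.120 to 0.325). The ES cell microRNAs had a ratio of 0.132 (0.120 to 0.146) as a sum, which joins 0.303 (0.268 to 0.343) for the Mir302 to Mir367 cluster and 0.0620 (0.0521 to 0.0731) for the Mir290 to Mir295 cluster. The ES cell mRNAs had 0.0761 (0.0204 to 0.200). The interval of the 66 genes' sum overlapped those of Rian, the snoRNAs and the Mir302 to Mir367 cluster, and lay above those of Mirg, the Mir290 to Mir295 cluster and the ES cell mRNAs.

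**Figure D4:**
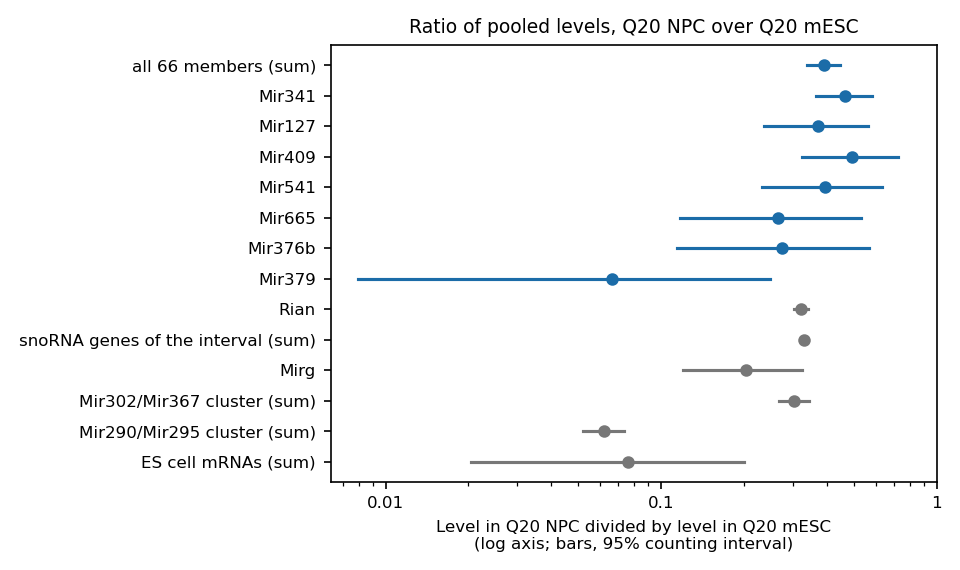
Pooled level in the 2 Q20 NPC libraries divided by that in the 2 Q20 mESC libraries (log axis), with bars for 95% counting intervals, for the sum of the 66 genes and 7 of them (blue) and for other RNAs (grey). The sum of the 66 genes lies at 0.390, Mir379 lies lowest of the 7 at 0.0666, and the Mir302 to Mir367 and Mir290 to Mir295 clusters of ES cell microRNAs lie at 0.303 and 0.0620.

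Whether the difference between Q20 and the other genotypes was larger in NPC than in mESC was tested in the fit of all 24 libraries. The value is the log2 difference of Q20 from the mean of the other 5 groups in NPC, minus the same in mESC. Of the 7 genes, 4 were called, all with the larger difference in NPC, where 2.43% of 904 genes were called and 2.32% in that direction. The values were 6.12 ± 0.93 for Mir409 (SE, edgeR adjusted p 9.95e-05), 5.81 ± 0.78 for Mir341 (edgeR adjusted p 4.95e-06), 4.56 ± 0.84 for Mir127 (edgeR adjusted p 0.000475) and 3.37 ± 0.88 for Mir541 (edgeR adjusted p 0.0237). Mir665 gave 4.53 ± 1.26 and did not pass (edgeR adjusted p 0.0520), nor did Mir376b at 2.26 ± 1.12 or Mir379 at 2.18 ± 1.55. Mir541 lost the call in 11 of 29 alternatives, with edgeR adjusted p-values from 0.0559 to 0.192 there. These were the fit with no filter and the fits without either Q20 library of mESC, either Q20 or Q50 library of NPC, or replicate 2 of KO, WT, Q92 or Q111 NPC. The fitted values rest on NPC groups at 0 and are no bounds.

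In mESC, where every line had these RNAs, Q20 was again the highest. Of the 29 genes with at least 10 counts in the 10 mESC libraries other than Q20, a choice that does not use the Q20 libraries, all 29 had a higher pooled level in Q20, from 1.01-fold (Mir369 and Mir666) to 5.82-fold (Mir382). The median ratio was 2.74, beside 0.902 over the 7114 genes chosen in the same way, of which 41.8% were higher in Q20. With library totals in place of TMM scaling, Mir369 and Mir666 fell below 1, and the median was 2.44 beside 0.803 for all genes. The counting interval lay above 1 in 20 of the 29.

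By genotype, the summed level in mESC was 531 ± 6.26 scaled CPM in Q20, 283 ± 99.9 in Q92, 231 ± 59.6 in KO, 213 ± 79.2 in Q50, 212 ± 11.7 in Q111 and 150 ± 20.5 in WT (SD, n = 2 each). Both Q20 libraries lay above the other 10. In this order, the ranges of Q92 and KO, of KO and Q50, and of Q50 and Q111 overlapped, while those of Q111 and WT did not. The pooled ratio of Q20 to the other mESC was 2.61 (95% counting interval 2.45 to 2.78), and it was 2.70 (2.36 to 3.08) before Rian, 2.36 (2.11 to 2.64) within Rian and 2.76 (2.51 to 3.03) beyond it.

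In the fit without a replicate block, this difference passed for few genes. Of 14 genes tested, Mir409 was called higher in Q20 mESC, by 1.59 ± 0.33 on the log2 scale (SE, edgeR adjusted p 0.0225), from 54.3 ± 6.57 scaled CPM in Q20 (SD, n = 2) against group means of 12.6 to 24.8. Of the 1766 genes tested, 4 or 0.227% were called. Mir127 gave 1.53 ± 0.35 (edgeR adjusted p 0.0660) and Mir341 1.31 ± 0.36 (edgeR adjusted p 0.213), and 13 of the 14 had an unadjusted p under 0.05, beside 115 of the 1766. Mir382 and Mir667 passed the filter only with the Q20 libraries, and the other 12 gave a median of 1.43, beside -0.08 over all genes. Both Q20 libraries lay above the other 10 in 8 of the 14 genes, beside 2.6% of the 1766. Mir382 and Mir667 are among these 8 and among the 13 with an unadjusted p under 0.05. Both counts thus include genes that entered by being high in Q20, and they are descriptions. Mir541 and Mir376b were among the 6 that overlapped, with replicate 2 of KO at 39.4 scaled CPM against 36.9 and 49.0 in Q20 for Mir541, and replicate 2 of Q50 at 24.4 against 23.5 and 25.6 for Mir376b.

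The call for Mir409 was lost without either Q20 library (edgeR adjusted p 0.42 and 0.89), with library totals (0.349) and without the WT group (0.0674), and its log2 value stayed between 1.34 and 1.73 over 21 alternatives. The number of genes called depended on which replicates of the other lines were used. Against their first replicates alone, 12 of 18 tested genes were called higher, beside 1.99% of 1955 genes called. Against their second replicates alone, 7 of 12 were called higher, beside 7.29% of 1029. These comparisons, chosen after seeing the data, share the Q20 libraries. A group of ES cell microRNAs moved with the members in Q20 mESC. Of the 9 of this list that were tested, Mir302b and Mir367 were called higher, by 4.30 ± 0.62 and 2.95 ± 0.60 on the log2 scale (edgeR adjusted p 0.000581 and 0.0225), and the 7 tested genes of the Mir290 to Mir295 cluster were not called. The Mir302 to Mir367 cluster lay at 792 and 811 scaled CPM in Q20 mESC against 2.13 to 140 in the other mESC, a pooled ratio of 16.0 (95% counting interval 14.7 to 17.5). The Mir290 to Mir295 cluster lay at 1801 and 2082 in Q20 mESC, inside the 1096 to 3717 of the other mESC. The fibroblast mRNAs lay at 11.0 and 16.1, inside 7.81 to 27.6. Neural progenitor mRNAs were at 20.5 and 14.1 in Q20 mESC against 6.37 to 13.3, and Slc1a3 gave 32 of their 49 counts there. Of these 10 mRNAs, 4 had a count in Q20 mESC. The neural microRNAs were at 0 in both Q20 mESC libraries, against 0.571 to 6.38 in the other mESC. The ES cell mRNAs lay at 32.1 and 55.0, against 44.5 to 75.3. The part of these markers in the result was not tested.

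Among the transcripts that host these genes, Rian was likewise highest in Q20 mESC. Rian stood at 3415 and 3250 scaled CPM in Q20 mESC against 389 to 1981 in the other 10 libraries, a pooled ratio of 2.73 (95% counting interval 2.66 to 2.80). The snoRNA sum had a ratio of 2.43 (2.39 to 2.47) and Mirg of 3.34 (2.80 to 3.97), although the Q20 libraries of Mirg, at 62.8 and 92.5 scaled CPM, overlapped the 7.36 to 79.4 of the others. Meg3 had a ratio of 1.36 (0.746 to 2.37), from 17 counts in Q20 mESC and 60 in the others. Over the 12 mESC libraries the summed level of the 66 genes had a Pearson correlation of 0.94 with the snoRNA sum (Spearman 0.81), 0.89 with Rian (Spearman 0.71) and 0.82 with Mirg (Spearman 0.83). Without the 2 Q20 libraries the Pearson values were 0.74, 0.46 and 0.86. These points share libraries and depth, so the values are a description. The protein-coding genes of the domain were scarcely counted, with 4 counts for Dlk1, 3 for Dio3 and 0 for Rtl1 over the 24 libraries. Meg3 had 82 counts.

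Of the 8 genes of the domain listed with these hosts (Dlk1, Meg3, Rtl1, Rian, Mirg, Dio3, Dio3os and Begain), Rian and Mirg were tested in NPC against mESC and both were called lower, by -3.58 ± 0.17 and -5.47 ± 0.78 on the log2 scale (edgeR adjusted p 4.71e-14 and 4.62e-06). Rian kept 17.0 to 140 scaled CPM in the NPC other than Q20, where the 66 genes were at 10.6 or less. It was called higher in Q20 NPC, by 3.88 ± 0.36 (edgeR adjusted p 5.40e-08). In Q20 mESC none of Meg3, Mirg and Rian was called by edgeR (adjusted p 0.986, 0.590 and 0.166). Of 18 genes of microRNA processing, from Drosha and Dicer1 to the Argonautes, 5 were tested in NPC against mESC and 1 was called higher. In Q20 NPC 2 were tested with 0 called, and in Q20 mESC 11 were tested with 0 called.

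Replicate libraries of the same mESC line differed in the make-up of these RNAs. In the 5 genotypes other than Q20, the first libraries were deeper, with 2134729 to 2360434 counts, than the second, with 642384 to 1149003. The pooled level of Mir412 was 6.15 times as high in the second libraries (95% counting interval 3.05 to 13.4), from 35 counts against 11. It was 3.41 times as high for Mir136 (1.82 to 6.59), 2.92 for Mir379 (1.92 to 4.50), 2.22 for Mir665 (1.58 to 3.14) and 2.07 for Mir376b (1.41 to 3.05), and each of these was higher in the second library in 5 of 5 genotypes. Mir409, at 1.01 (0.771 to 1.32), and Mir341, at 0.816 (0.705 to 0.942), did not share that shift.

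The same contrast was 4.07 (3.21 to 5.19) for Mirg, 0.746 (0.722 to 0.772) for Rian and 1.94 (1.90 to 1.99) for the ES cell microRNAs. Within Rian the genes' sum had a ratio of 0.825 (0.714 to 0.951), against 1.67 (1.42 to 1.96) before it and 1.62 (1.45 to 1.81) beyond it. The labels give no batch, the depth differed in the same direction in all 5 genotypes, and its part in these differences was not tested. The spread between replicates entered every mESC test above. Over the 12 mESC libraries, each of the 9 genes with at least 100 counts correlated with the sum of the other members by a Pearson value of 0.70 (Mir411) to 0.95 (Mir127), given as a description of libraries that share depth and line.

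**Figure D5:**
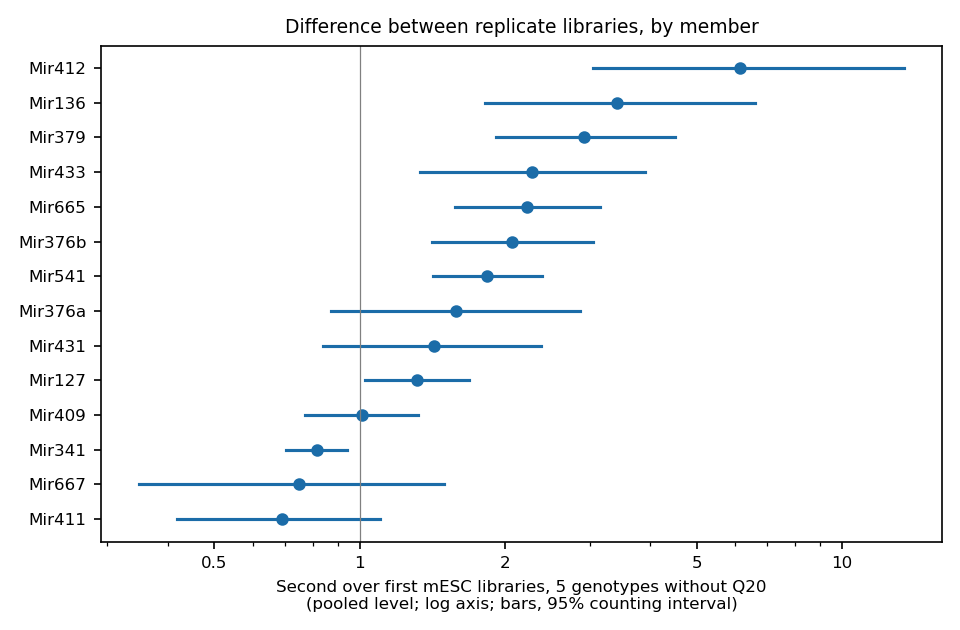
Pooled level in the second mESC libraries divided by that in the first (log axis), over KO, WT, Q50, Q92 and Q111, for the 14 genes with at least 40 counts in these libraries, with bars for 95% counting intervals and a line at 1. Mir412 is highest at 6.15, and Mir409 and Mir341 lie near the line at 1.01 and 0.816.

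The remaining comparisons asked for effects of Htt loss and of longer repeats. In mESC, 0 of 14 tested genes were called by edgeR in KO, Q50, Q92 or Q111 against WT, where 0.0% of 1766 genes were called in each, with 17, 47, 48 and 66 genes at an unadjusted p under 0.05. The median log2 change of the 14 was 0.54 in KO, 0.74 in Q50, 0.87 in Q92 and 0.37 in Q111, beside 0.03, 0.04, -0.02 and 0.02 over all genes. These comparisons share the WT libraries, whose summed level was the lowest of the 6 lines. Without a replicate block, Q20 against WT called 0 of the 14 in mESC beside 0.0566% of genes, with a median of 2.01 and the smallest p in Mir409, at 2.13 ± 0.47 (edgeR adjusted p 0.158). The DESeq2 Wald test also called 0 of the 14 in each of these 5 comparisons. With the replicate number as a block, Q20 against WT called 8 members, while KO, Q50, Q92 and Q111 stayed at 0. The share of all genes called with the block is not given, so the 8 describe the members alone.

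In NPC, KO, Q50, Q92 and Q111 against WT called 0 of the 2 tested genes, with 1.36%, 6.58%, 18.8% and 10.9% of 441 genes called. Mir341 and Mir409 had at most 1 count in any of these 10 libraries, so a difference among these lines was not detectable. Q20 against WT called both, beside 12.7% of genes, through the Q20 libraries described above.

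Along the repeat length, the log2 slope for each 10 CAG repeats, fitted to the 8 libraries of the knock-in lines, called 0 of 14 genes in mESC, beside 0.0% of 1487 genes. All 14 fitted slopes were below 0, with a median of -0.14 on the log2 scale per 10 repeats, and without the Q20 group 5 of 11 were above 0 and the median was -0.01. In NPC, Mir127, Mir341 and Mir409 were tested and called as falling, by -0.72 ± 0.17, -1.13 ± 0.17 and -1.28 ± 0.20 per 10 repeats (edgeR adjusted p 0.0346, 0.00333 and 0.0208), beside 6.45% of 403 genes called and 3.72% called as falling. Each passed the filter through the Q20 libraries. Without the Q20 group, none of the 3 passed it, because Q50, Q92 and Q111 together had 2 counts over these genes. The fall was thus a step between Q20 and the other lines, with no graded change among Q50, Q92 and Q111 that these counts could show.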

How the data were processed

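Small RNA was measured in 24 libraries, 2 per genotype and cell type, which the series' design text calls biological samples. Raw counts per gene, whole numbers that are not normalized, were deposited by the authors as a single table of 55335 Ensembl genes in 24 columns. Per the labels' protocols, libraries came from total RNA and were read as single-end 50-base reads on an Illumina HiSeq instrument. The submitters' processing notes name CASAVA 1.8, STAR, HTSeq and GRCm38.p6, without role or settings. Adapter trimming, the strand setting and the treatment of reads matching several places are not given in the sources used here, so microRNA genes that overlap other exons, or share sequence with other genes, are uncertain. Columns named Q89 (4) were assigned to the line titled Q92, since the growth protocol gives 89 repeats for it.

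Identifiers were matched to GENCODE M21 (55154 of them), which gave positions and exons, and sequences came from RefSeq tables (GRCm38.p6). Counts were tested with edgeR 4.0.16 (glmQLFit, glmQLFTest, TMM scaling, filterByExpr at its minimum count of 10 and total of 15) in R 4.3.3. P-values were adjusted by Benjamini and Hochberg over all genes of a fit, and called at 0.05. The fit of all 24 libraries gave NPC against mESC and the difference of Q20 by cell type, and fits of 12 libraries the comparisons within a cell type. The slopes used 8 knock-in libraries. Of the 66 members, 7 passed the filter over all libraries, 14 in mESC and 2 in NPC. Scaled CPM are counts divided by the TMM-scaled library size, times 1e6. Pooled ratios have exact conditional binomial intervals at 95%. Simulated counts were used to check the edgeR fits for NPC against mESC, Q20 against others in each cell type and Q20 by cell type. KO against WT in mESC and the NPC slope were checked in the same way. The other comparisons, the alternatives and the pooled ratios were not.

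Named with counts per library were the members that passed the filter over all 24 libraries and the markers Mir341 and Mir409, and with a total or range those with at least 10 counts. The members, gene lists and tests were chosen with earlier results of these data known. Replicate numbers come from the titles. The labels tie them to no shared litter, batch or day. Where nothing else ties samples to separate cultures, p-values measure the spread between these samples. Alternatives were a replicate block, no filter, library totals or DESeq2 size factors for scaling, the DESeq2 (1.42.0) Wald test, other contrasts, microRNA symbols alone, leaving out the Q20 group or each library in turn, and, chosen after seeing the data, the first or the second replicates of the other lines, or no WT group, against Q20 mESC.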

Additional observations from a re-analysis of the deposited data

Results flagged for a closer look

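For 4 of the 7 genes tested, the difference of Q20 from the other lines was larger in NPC than in mESC. This was a test of that difference itself in the fit of all 24 libraries, where 2.43% of 904 genes were called. The log2 difference was 6.12 for Mir409, 5.81 for Mir341, 4.56 for Mir127 and 3.37 for Mir541 (edgeR adjusted p 9.95e-05, 4.95e-06, 0.000475 and 0.0237). Mir541 lost the call in 11 of 29 alternatives. The fitted values rest on NPC groups at 0 and are no bounds. In all 4 genes both Q20 NPC libraries lay above the other 10 NPC libraries, beside 2.98% of the 14269 genes with an NPC count. The 4 were chosen by a test on these same libraries, so this describes them and adds no support. With groups of 2 libraries, a single library far from its group could not be looked for.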

How the results depend on the processing

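All 7 genes called lower in NPC kept that call in each of their alternatives, except that Mir376b was not tested without the Q20 groups, where 6 of 6 were called. With no filter on low counts, 23 members were called in that comparison and 10 in Q20 NPC against the other NPC. There were also 5 in Q20 mESC against the other mESC and 7 along the NPC slope. More members could be tested in these fits. The share of all genes called is given above for the main fits and for the replicate subsets of Q20 mESC. For the other counts in this part it is not given, so they describe the members alone.

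Q20 mESC against the other mESC was the least stable result. In place of 1 member, 0 were called with library totals, 3 with the DESeq2 Wald test, 2 with a contrast of group means, 12 against the first replicates and 7 against the second, and 0 without the WT group, and leaving out 1 library gave 0 to 3. Mir433 changed sign to -0.058 against the second replicates, and with 1 library left out it ranged from -0.21 (without replicate 2 of Q20) to 0.90. Mir379 in Q20 by cell type changed sign to -1.76 without replicate 1 of Q20 NPC, its only Q20 NPC library with a count, and reached 2.95 without replicate 2.

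With the replicate number as a block, 11 members were called in Q20 mESC against the other mESC and 8 in Q20 against WT in mESC. The mESC slope and the NPC slope called 1 each. The share of all genes called in these fits is not given here, so the counts describe the members alone. The block left the other results within 1.5 times the main count, with 0 called in KO, Q50, Q92 and Q111 against WT. In mESC, replicate differences correlated by 0.41 to 0.52 between lines other than Q20 (10 pairs) and by at most 0.08 where Q20 was a partner (5 pairs), and in NPC 4 of 15 pairs exceeded 0.1. The numbers thus went with a shared deviation in the other mESC lines and not in Q20, so the fits with Q20 are not read as paired.

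Q20 against WT in NPC called 1 member with the DESeq2 Wald test, and 1 to 3 with 1 library left out. The slope in NPC called 0 members with the DESeq2 Wald test and 0 without the Q20 group, where none was tested, and 1 to 3 with 1 library left out. The slope in mESC called 0 or 1 with 1 library left out. Except where fewer or more genes were tested, the cause was not tested. In depth, 3 counts equal 4.40 to 8.77 CPM of the library total in NPC and 1.27 to 4.67 in mESC.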
